A study of Mus musculus with 6 samples.

Results

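The gene set described here is the transforming growth factor beta (TGF-beta), activin and Gdf15 group, 10 mouse genes out of the 32285 in the count matrices. The members were chosen by symbol: the ligands Tgfb1, Tgfb2 and Tgfb3, the receptors Tgfbr1 and Tgfbr2, the activin subunits Inhba and Inhbb, the activin antagonist Fst, the stress-induced ligand Gdf15 and the target gene Ccn2. All 10 were found, and all 10 were detected, among 24605 genes with at least 1 UMI (a molecule counted once through its unique molecular identifier) in the cells kept.

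The cells came from the tibialis anterior muscles of both hindlimbs of wildtype mice. The muscles were uninjured (called day 0), or were injured with cardiotoxin, a snake venom toxin that kills muscle fibres while sparing the satellite cells that rebuild them, and collected on day 1 or day 3 after the injury. On each day mononucleated cells were collected at ZT4 and at ZT16; zeitgeber time (ZT) counts hours from lights on, so ZT4 falls in the light phase of a standard cycle and ZT16 in the dark phase. Dead cells, which take up propidium iodide, were sorted away, and droplet-based 3′ single-cell RNA libraries were made, 1 for each of the 6 combinations of day and time. The labels used here give no age, sex, strain or number of mice, and do not say at which hour the injury was made.

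Members of the TGF-beta family are secreted dimers that bind a type II receptor serine/threonine kinase, which phosphorylates a type I receptor; the activated receptor phosphorylates SMAD proteins, which enter the nucleus and regulate transcription. TGF-beta is stored in the matrix in a latent form and is best known in muscle for driving fibro-adipogenic progenitors and fibroblasts to lay down collagen, and for holding back the fusion of muscle precursors. Activins, dimers of inhibin beta subunits, use a separate set of receptors, limit muscle mass, and are neutralised by follistatin. Gdf15 is a distant member whose known receptor, Gfral with its co-receptor Ret, sits in the hindbrain; its transcription rises with cellular stress, and in injured mouse muscle it has been described as a product of repair-phase macrophages.

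The members are protein-coding genes on mouse chromosomes 1 (Inhbb and Tgfb2), 4 (Tgfbr1), 7 (Tgfb1), 8 (Gdf15), 9 (Tgfbr2), 10 (Ccn2), 12 (Tgfb3) and 13 (Inhba and Fst) of GRCm38. The promoters of 2 of them are shown because each holds the E-box letters of the clock factors, and collection time is part of the design. In the RefSeq tables for GRCm38.p6, 7 of the 10 members had a window reaching from 250 bases before a transcription start to 50 after it, 9 windows in all. The 250 bases before the start of Tgfb2 (minus strand, chr1:186705990-186706239) are printed 5′ to 3′, with capitals marking, in order, the SMAD-box letters CAGACA (204 bases before the start), the E-box letters CACGTG (51 before it), which CLOCK with BMAL1, MYC and other basic helix-loop-helix factors bind, and the TATA-box letters TATAAA (31 before it):
Tgfb2: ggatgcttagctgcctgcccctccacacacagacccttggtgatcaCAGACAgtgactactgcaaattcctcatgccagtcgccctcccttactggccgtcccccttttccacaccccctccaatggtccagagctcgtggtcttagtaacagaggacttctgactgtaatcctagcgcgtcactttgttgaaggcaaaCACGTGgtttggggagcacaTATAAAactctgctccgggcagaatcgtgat
The second start of Gdf15 had CACGTG 83 bases before it. It is shown in capitals within 30 bases of the minus strand at chr8:70632161-70632190, which lie inside the Gdf15 gene in GENCODE vM21:
Gdf15: cacagggcagggCACGTGtgagcatccagt
Both strands were searched for 6 motifs. CACGTG was in 2 of the 9 member windows and in 7.15% of all 32851 RefSeq windows of 300 bases. CAGACA was in 2 of the 9 and in 21.0% of all, TATAAA in 2 of the 9 (Tgfb2 and Inhba) and in 13.6%, and the TEAD-binding letters CATTCC in 1 of the 9 (Gdf15) and in 14.7%. The AP-1 letters TGANTCA, held by 7.81% of all windows, and the ATF4-type letters TGATGCAA, held by 0.895%, were in none of the 9. These matches describe the letters and nothing more.

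Of 68724 barcodes, 58469 cells were kept, 7638 to 11168 per library, with a median of 3172 to 11128 UMIs per cell. Libraries shared 21 to 65 barcode sequences in pairs, at most 0.566% of the smaller library. The cells fell into 41 clusters; 37 were named after the markers of 14 cell classes, and 4 clusters with 3803 cells were left without a name. Clustering used neither the members nor the pathway genes described below. Levels are given as CPM: the UMIs of a gene summed over the cells of a class in a library, as a counts-per-million share of all UMIs of those cells. With 1 library per day and time there is no replicate check and no test: the 95% Poisson intervals in parentheses cover counting error only, and the 2 collection times are different groups, not replicates. A gene is said to have risen or fallen between days when the difference was at least 2-fold in the same direction at ZT16 and at ZT4. For ZT16 against ZT4 the limit was 1.5-fold. At least 30 UMIs in the compared groups together were required. A class was compared where each library had at least 50 of its cells.

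The clusters that held a class differed between days, so each comparison of days within a class also compares clusters. Fibro-adipogenic-like cells lay in clusters 8, 10, 19 and 38 on day 0 and mostly in cluster 21 (led by Tnn, Cxcl5 and Lrrc15) on days 1 and 3. Endothelial-like cells lay in clusters 2, 26 and 31 on day 0 and mostly in cluster 24 (led by Apln and Pgf) on day 1. Monocyte-macrophage-like cells lay mostly in cluster 14 (led by Cd209f and Timd4) on day 0, in clusters 0 (Ppbp and Arg1) and 7 (Cd177 and Chil3) on day 1, and in clusters 3 (Gpnmb), 4 (Cxcl10 and Ifit2) and 13 (Ccl8 and Folr2) on day 3. Myogenic-like cells lay mostly in cluster 12 (led by Calcr) on day 0, with 961 of its cells at ZT16 and 892 at ZT4, and mostly in clusters 20 (Mymx and Myog) and 32 on day 3. The day 0 library at ZT16 also held 38 cells of cluster 20 and 39 of cluster 32, against 4 and 0 at ZT4. Dendritic-like cells lay mostly in cluster 28 on day 0 and in cluster 6 (led by Cd209a) on days 1 and 3. On day 1 only 110 fibro-adipogenic-like cells remained at ZT16 and 71 at ZT4, against 2511 and 3110 on day 0, while neutrophil-like cells numbered 4202 and 4822 on day 1 against 8 and 3 on day 0.

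**Figure D1:**
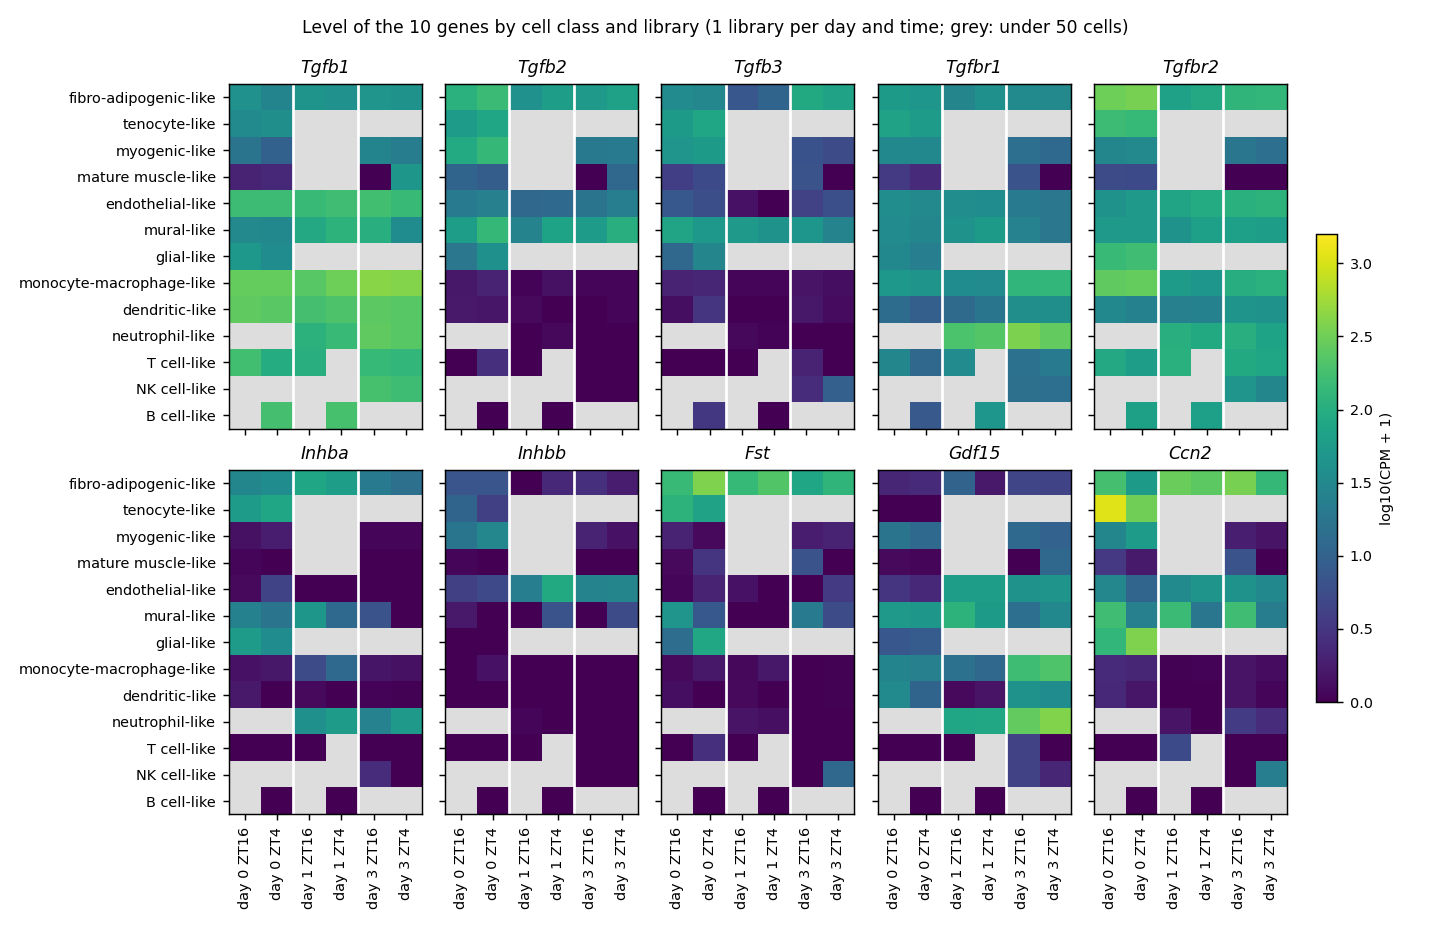
Levels of the 10 members, 1 panel each, by cell class (rows) and library (columns), coloured by log10(CPM + 1); grey is a class with fewer than 50 cells in that library. Tgfb2, Tgfb3 and Ccn2 are high in fibro-adipogenic-like, tenocyte-like and mural-like cells, Fst in fibro-adipogenic-like and tenocyte-like cells, Tgfb1 in immune cells and endothelial-like cells, and Gdf15 in macrophage-like and neutrophil-like cells of day 3.

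In day 1 cells set against day 0 cells, 11 of 35 tested combinations of a member and a class passed the fold rule over 5 classes. In fibro-adipogenic-like cells 0 of 10 members rose and 4 fell (Tgfb2, Tgfb3, Tgfbr2 and Inhbb); of all tested genes 28.2% passed in either direction and 18.7% fell. In endothelial-like cells 2 rose (Inhbb and Gdf15) and 1 fell (Tgfb3) of 8, beside 16.9% of all genes, and in monocyte-macrophage-like cells 1 rose (Inhba) and 1 fell (Tgfbr2) of 5, beside 30.1%. In dendritic-like cells 1 fell of 4 (Gdf15), beside 12.8%, and in mural-like cells 1 rose of 8 (Tgfb1), beside 9.1%. The median log2 difference of the tested members was -0.54 in fibro-adipogenic-like cells, against -0.29 over all genes, and 0.44 in endothelial-like cells, against -0.11.

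In day 3 cells set against day 0 cells, 18 of 45 combinations passed over 8 classes. In myogenic-like cells 5 of 8 members fell and 0 rose, beside 33.4% of all genes passing in either direction and 18.1% falling, with a median of -1.87 against -0.05 over all genes. In fibro-adipogenic-like cells 2 rose and 3 fell of 10, beside 19.9%, and in monocyte-macrophage-like cells 2 rose and 1 fell of 4, beside 20.8%. The endothelial-like count was 3 higher of 8 (Tgfbr2, Inhbb and Gdf15), beside 5.3% of all genes in either direction and 2.33% higher. In dendritic-like cells 1 of 4 rose (Tgfbr1), beside 11.4%, and in mural-like cells 1 of 8 fell (Inhba), beside 4.74%. That Inhba value rests on 2 UMIs at ZT16 and 0 at ZT4 on day 3, was under the limit at ZT4 with 2 UMIs added (-0.98), and had no value with doublets kept, a 5% mitochondrial limit, a minimum of 1500 UMIs per cell or thinned cells, which left the class under 50 cells. In T cell-like cells 0 of 2 passed, beside 5.87%, and the 1 member tested in mature muscle-like cells did not pass, beside 7.38%. Between day 3 and day 1, 8 of 33 combinations passed over 6 classes. They were 3 of 5 in monocyte-macrophage-like cells (19.3% of all genes), 2 of 9 in fibro-adipogenic-like (15.8%), 2 of 4 in dendritic-like (10.2%), 1 of 5 in neutrophil-like (21.2%), 0 of 7 in endothelial-like (8.71%) and 0 of 3 in mural-like cells (4.32%).

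**Figure D2:**
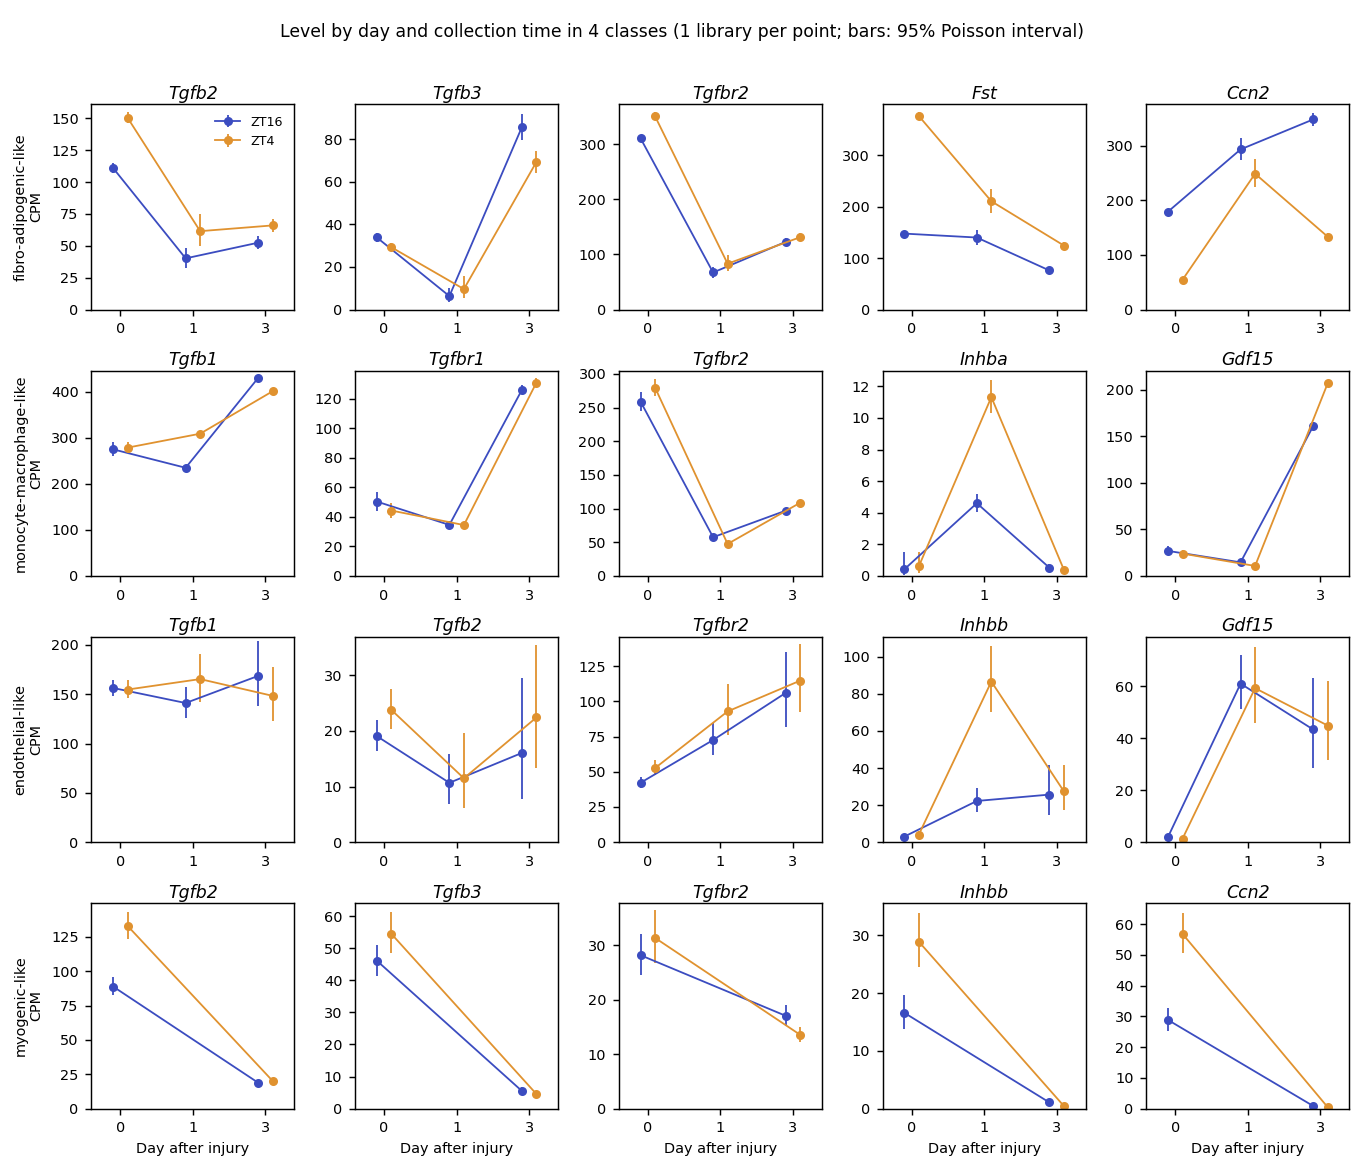
CPM (linear axes from 0, each panel with its own scale) by day after injury for 5 members in each of 4 classes; points are single libraries at ZT16 and ZT4, lines join them and bars are 95% Poisson intervals of the count. Gdf15 in monocyte-macrophage-like cells reaches 161 CPM at ZT16 and 207 at ZT4 on day 3, and Tgfbr2 in fibro-adipogenic-like cells is lowest on day 1.

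Tgfb1, the main isoform of leukocytes and platelets, was highest in macrophages. Its level in monocyte-macrophage-like cells was 275 CPM (260 to 290) at ZT16 and 278 (266 to 291) at ZT4 on day 0, 235 and 309 on day 1, and 430 (424 to 435) and 401 (396 to 406) on day 3. None of these differences reached the fold rule, although the day 3 intervals lie above those of day 0 and day 1. Cluster 3, led by Gpnmb, had the highest day 3 levels among the large macrophage clusters, 508 CPM at ZT16 and 479 at ZT4. In dendritic-like cells Tgfb1 stayed between 180 and 259 CPM in the 6 libraries and in endothelial-like cells between 141 and 169, so neither class showed a difference between days of 2-fold. Fibro-adipogenic-like cells had much less, between 27.1 and 45.7 CPM over the 6 libraries. In mural-like cells Tgfb1 was at 83.7 CPM at ZT16 and 116 at ZT4 on day 1, against 31.2 and 29.8 on day 0, a log2 difference of 1.43 (0.93 to 1.91) at ZT16 and 1.97 (1.36 to 2.55) at ZT4. The summed level of the 11 neutrophil markers in these day 1 mural-like cells was 485 CPM at ZT16 and 4249 at ZT4. Their part in the result was not tested. With doublets kept, the cluster led by Gabrr1 and Kcnj8 got no class name, so the mural-like class was a different set of cells. In that set the value was 0.90 at ZT16, under the limit, and 2.02 at ZT4.

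Tgfb2, an isoform best known from mesenchymal and developing tissues, was expressed by stromal, mural and myogenic cells and was at or under 1.78 CPM in immune classes. In fibro-adipogenic-like cells it was at 111 CPM (107 to 115) at ZT16 and 150 (146 to 155) at ZT4 on day 0, 40.2 and 61.5 on day 1, and then 52.5 and 66.0 on day 3. It fell on day 1 by 1.46 on the log2 scale at ZT16 and 1.28 at ZT4, and on day 3 by 1.08 and 1.19. The day 3 difference at ZT16 shrank to under 2-fold with trimmed mean of M values (TMM) scaling, where it was -0.98. Among the 3 large day 0 clusters of this class, cluster 10 had the most, 148 CPM at ZT16 and 188 at ZT4, and cluster 19 the least, 85.4 and 122. Myogenic-like cells had 18.8 CPM (16.9 to 20.8) at ZT16 and 20.0 (18.4 to 21.8) at ZT4 on day 3, against 88.9 (82.4 to 95.8) and 133 (123 to 143) on day 0, a fall of 2.24 and 2.73 on the log2 scale. In endothelial-like cells the class level on day 0 was only 19.1 CPM at ZT16 and 23.8 at ZT4, but in cluster 26, led by the arterial gene Gja5, it was 139 and 181.

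Tgfb3, the third isoform, took opposite directions in stroma and muscle precursors on day 3. In fibro-adipogenic-like cells it was at 33.8 CPM (31.6 to 36.1) at ZT16 and 29.3 (27.3 to 31.3) at ZT4 on day 0, 6.32 (3.68 to 10.1) and 9.61 (5.38 to 15.9) on day 1, and 85.6 (79.7 to 91.9) and 69.3 (64.2 to 74.6) on day 3. It thus fell on day 1 and rose above the uninjured level by day 3, with a day 3 over day 0 log2 value of 1.34 at ZT16 and 1.24 at ZT4, and a day 3 over day 1 value of 3.72 and 2.80. The day 1 levels rest on 17 UMIs at ZT16 and 15 at ZT4. In myogenic-like cells Tgfb3 was at 5.47 CPM (4.47 to 6.63) at ZT16 and 4.52 (3.76 to 5.38) at ZT4 on day 3, against 46.2 and 54.6 on day 0, a fall of 3.07 and 3.59 on the log2 scale. The difference between these classes was not tested. In endothelial-like cells it was low throughout, with 1 UMI at ZT16 and 0 at ZT4 on day 1, against 65 and 36 on day 0. The log2 value at ZT16 was -3.31 (-9.21 to -1.35), and at ZT4 the level was at least 1.85-fold lower, taking 3 UMIs as the limit that a count of 0 allows.

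The type I receptor Tgfbr1 was highest in neutrophils after injury. Neutrophil-like cells had 195 CPM (186 to 203) at ZT16 and 217 (208 to 225) at ZT4 on day 1 and 367 (310 to 433) and 272 (233 to 315) on day 3. Within that class cluster 5, led by Siglecf and Gpr84, had 307 CPM at ZT16 and 333 at ZT4 on day 1, and cluster 1, led by Retnlg, had 116 and 120. In monocyte-macrophage-like cells Tgfbr1 was at 50.4 CPM at ZT16 and 44.3 at ZT4 on day 0, 34.6 and 34.5 on day 1, and 126 (123 to 129) and 131 (128 to 134) on day 3. It rose on day 3 by 1.32 log2 at ZT16 and 1.56 at ZT4 over day 0, and by 1.87 and 1.93 over day 1. On day 3 cluster 3 had 184 CPM at ZT16 and 182 at ZT4 and cluster 4 had 114 and 109, whereas cluster 13, led by Ccl8 and Folr2, had 34.1 and 40.0. Dendritic-like cells also passed, at 36.7 CPM at ZT16 and 38.7 at ZT4 on day 3, against 12.6 and 8.33 on day 0, but the values were 0.41 and 0.40 log2 when every cell was reduced to 1000 UMIs. Monocyte-macrophage markers in the dendritic-like cells summed to 10894 CPM at ZT16 and 11957 at ZT4 on day 3, and to 11205 and 14578 on day 0.

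The type II receptor Tgfbr2, which binds TGF-beta itself, had its highest levels in uninjured stroma and macrophages and fell in both after injury. In fibro-adipogenic-like cells it was at 311 CPM (304 to 318) at ZT16 and 351 (344 to 358) at ZT4 on day 0, 67.3 (57.9 to 77.9) and 83.3 (69.6 to 98.9) on day 1, and 123 (116 to 130) and 131 (124 to 139) on day 3, a day 3 fall that was under 2-fold at ZT16 (-0.78) with thinned cells. The day 1 over day 0 values were -2.20 (-2.43 to -1.99) at ZT16 and -2.07 (-2.34 to -1.83) at ZT4 on the log2 scale. Its day 0 level differed among clusters of that class, with 438 CPM at ZT16 and 560 at ZT4 in cluster 10, 266 and 236 in cluster 8, and 212 and 193 in cluster 19. In monocyte-macrophage-like cells it was at 259 CPM at ZT16 and 280 at ZT4 on day 0, 57.5 and 47.5 on day 1, and then 96.9 and 109 on day 3. The fall on day 1 was 2.17 at ZT16 and 2.56 at ZT4 on the log2 scale; the day 3 fall of 1.42 and 1.36 missed the 2-fold limit with TMM scaling (-0.99 and -0.94) and, at ZT4, with doublets kept (-0.96). On day 3 cluster 13 had the most of the large macrophage clusters, 141 CPM at ZT16 and 194 at ZT4. Fibro-adipogenic markers in the macrophage-like cells summed to 58.9 CPM at ZT16 and 99.8 at ZT4 on day 0, and to 18.9 and 18.1 on day 3.

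Endothelial-like cells moved the other way in Tgfbr2. They had 106 CPM (82.0 to 135) at ZT16 and 115 (92.4 to 141) at ZT4 on day 3, against 42.2 (38.2 to 46.4) and 52.6 (47.5 to 58.1) on day 0, log2 values of 1.34 and 1.13. The day 3 levels come from 114 and 168 cells, and the ZT4 value was 0.98, under the limit, when cells above 5% mitochondrial UMIs were left out. The day 1 levels of 72.6 CPM at ZT16 and 92.8 at ZT4 lay between those of day 0 and day 3 and did not pass the rule.

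Inhba, the subunit of activin A, changed its main source with time after injury. Of all Inhba UMIs in a library, fibro-adipogenic-like cells held 79.0% at ZT16 and 88.2% at ZT4 on day 0. On day 1 neutrophil-like cells held 45.1% at ZT16 and 53.5% at ZT4 and monocyte-macrophage-like cells 28.9% and 38.6%, and on day 3 fibro-adipogenic-like cells held 73.6% and 68.9%. These shares follow both the level per cell class and the number of cells captured. As a level, Inhba in fibro-adipogenic-like cells was at 28.5 CPM at ZT16 and 35.1 at ZT4 on day 0, 75.5 (65.5 to 86.6) and 59.6 (48.1 to 73.0) on day 1, and 19.1 (16.3 to 22.1) and 14.1 (11.8 to 16.6) on day 3. Only the day 3 fall relative to day 1 passed, at -1.99 log2 at ZT16 and -2.09 at ZT4. In monocyte-macrophage-like cells Inhba was near 0 on day 0 (2 UMIs at ZT16 and 4 at ZT4), at 4.6 (4.07 to 5.19) and 11.3 CPM (10.3 to 12.4) on day 1, and at 0.518 and 0.389 on day 3. It rose on day 1 by 3.16 log2 (1.61 to 6.53) at ZT16 and 4.06 (2.87 to 6.11) at ZT4 over day 0, and fell by 3.13 and 4.83 between day 1 and day 3. Neutrophil-like cells had 38.9 CPM at ZT16 and 55.8 at ZT4 on day 1, and within them cluster 15, led by Pdcd1lg2, Il1f9 and Hcar2, had 115 and 104.

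Inhbb, the subunit of activin B, was highest in myogenic-like cells in uninjured muscle and in endothelial-like cells after injury. In endothelial-like cells it was at 3.03 CPM (2.04 to 4.32) at ZT16 and 4.08 (2.75 to 5.82) at ZT4 on day 0, 22.3 (16.5 to 29.3) and 86.7 (70.4 to 106) on day 1, and 25.7 (14.7 to 41.7) and 27.4 (17.2 to 41.5) on day 3. The day 1 over day 0 values were 2.87 log2 (2.20 to 3.58) at ZT16 and 4.39 (3.81 to 5.05) at ZT4, which is 7.30-fold and 21.0-fold. Cluster 24, led by the tip-cell gene Apln, held 48 of 50 endothelial-like Inhbb UMIs on day 1 at ZT16 (96%) and 96 of 98 at ZT4 (98.0%). It made up 253 of 372 endothelial-like cells at ZT16 and 138 of 193 at ZT4 on day 1. On day 0 it made up 42 of 2498 and 43 of 2114. The part of this change in cell mix in the result was not tested. In myogenic-like cells Inhbb was at 1.05 CPM at ZT16 and 0.430 at ZT4 on day 3, against 16.6 (13.9 to 19.7) and 28.9 (24.5 to 33.9) on day 0, a fall of 3.95 and 6.02 on the log2 scale. With thinned cells the myogenic-like values were -1.93 and -3.88, on under 30 UMIs. None of the Inhbb calls between days was kept with thinned cells, each for having under 30 UMIs. Fibro-adipogenic-like cells held little, 6.02 and 5.89 CPM on day 0; on day 1 there were 0 UMIs at ZT16, at least 5.39-fold lower by the 3-UMI limit, and 2 UMIs at ZT4, with a log2 value of -1.88 (-5.26 to -0.33).

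Fst encodes follistatin, which binds and neutralises activins and myostatin and which fibro-adipogenic progenitors are known to secrete. Fibro-adipogenic-like cells held 89.2% to 98.5% of all Fst UMIs in the 6 libraries. Their level was 148 CPM (143 to 153) at ZT16 and 377 (370 to 384) at ZT4 on day 0, 140 (126 to 155) and 211 (189 to 235) on day 1, and 76.1 (70.5 to 82.1) and 125 (118 to 132) on day 3. Fst was thus lower at ZT16 than at ZT4 on each day, and no difference between days passed the rule at both times. Tenocyte-like cells on day 0 had 116 CPM (97.2 to 136) at ZT16, the next highest class there, and 69.6 (51.0 to 92.8) at ZT4, where glial-like cells had 82.0 (56.5 to 115).

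Gdf15 rose steeply in macrophages between day 1 and day 3. In monocyte-macrophage-like cells it was at 26.8 CPM (22.4 to 31.9) at ZT16 and 24 (20.4 to 28) at ZT4 on day 0, 14.6 (13.6 to 15.6) and 10.7 (9.73 to 11.7) on day 1, and 161 (157 to 164) and 207 (203 to 211) on day 3. The day 3 over day 0 log2 values were 2.58 (2.33 to 2.84) at ZT16 and 3.10 (2.88 to 3.34) at ZT4, 5.97-fold and 8.60-fold. The day 3 over day 1 ratios were 11-fold and 19.3-fold. On day 3 cluster 3 had 238 CPM at ZT16 and 273 at ZT4, and cluster 4 had 126 and 155. Cluster 13 had 77.4 CPM at ZT16 and 127 at ZT4, and the remaining cells of cluster 0 had 146 and 153. All of these lay above cluster 14 of day 0, at 27.7 and 22.7. Cluster 7 had less, 9.44 CPM over 67 cells at ZT16 and 31.5 over 98 cells at ZT4. Cells of cluster 0 had 16.6 CPM at ZT16 and 14.6 at ZT4 on day 1. Day 3 over day 1 values in this cluster were 3.14 and 3.39 log2, with 109 and 141 cells on day 3. Whether the cells of this cluster were alike on the 2 days was not tested. Macrophage-like cells held 89.1% of all Gdf15 UMIs at ZT16 and 89.3% at ZT4 on day 3.

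Within neutrophils Gdf15 was almost wholly in cells of a single cluster. The class as a whole had 78.1 CPM (72.9 to 83.6) at ZT16 and 81.1 (76.0 to 86.4) at ZT4 on day 1. Cluster 15 held 98.8% of these UMIs at ZT16 and 99.1% at ZT4, while making up 9.07% and 21.6% of the cells (381 and 1041). Cluster 15 itself had 874 CPM (816 to 935) at ZT16 and 382 (358 to 408) at ZT4, a ZT16 over ZT4 log2 value of 1.19 (1.06 to 1.33). Cluster 1 had 0.867 CPM at ZT16 and 0.191 at ZT4 on the same day, and cluster 5 had 1.09 and 2.17. The share of cluster 15 cells with at least 1 Gdf15 UMI was 34.1% at ZT16 and 20.7% at ZT4, at medians of 2402 and 2257 UMIs per cell. After reducing cells to 1000 UMIs it was 28.9% at ZT16 and 15% at ZT4. In T cell-like cells, where the gene is not known to be active, 3 of 181 cells (1.66%) had a UMI in the day 3 library at ZT16, at a median of 4391 UMIs. On day 3 neutrophil-like cells had 265 CPM (217 to 322) at ZT16 and 396 (349 to 447) at ZT4, log2 values of 1.77 and 2.29 over day 1 (0.99 and 2.13 with thinned cells, under the limit at ZT16), and cluster 15 made up 14% and 33.3% of the cells. Over all genes in this class the median was itself 0.59 log2, with 19.3% of genes rising and 1.82% falling. Monocyte-macrophage markers in neutrophil-like cells summed to 1863 CPM at ZT16 and 2570 at ZT4 on day 3, and to 1665 and 1798 on day 1; their part in the result was not tested.

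**Figure D3:**
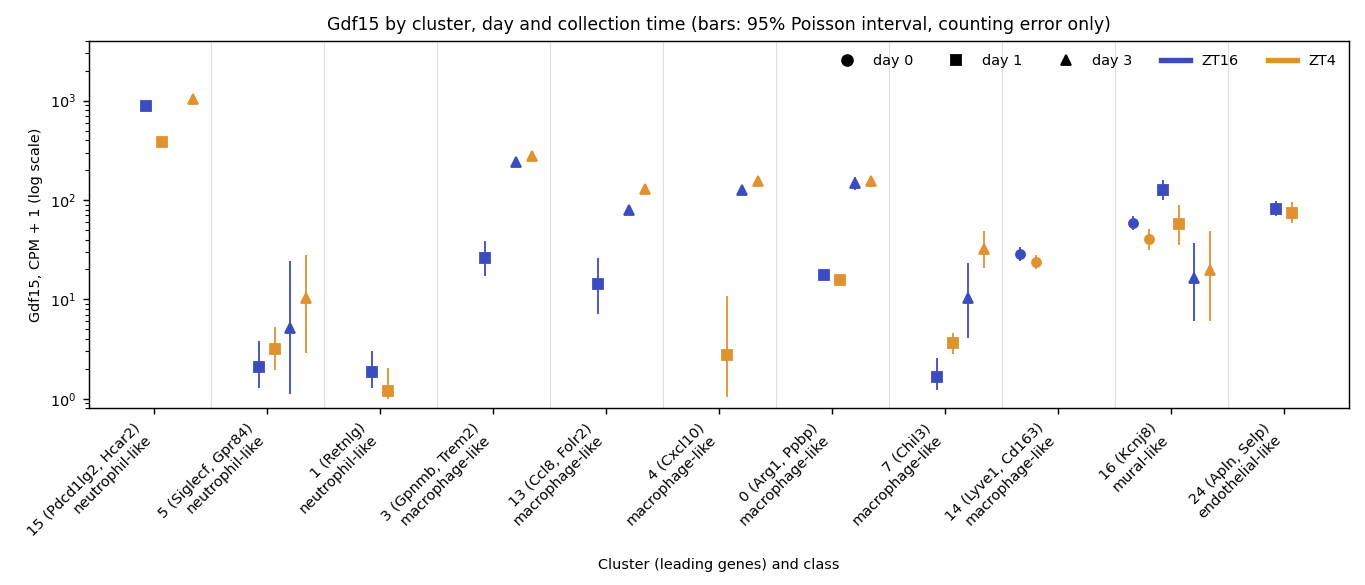
Gdf15 level (CPM + 1, log axis) in 11 clusters of the neutrophil-like, monocyte-macrophage-like, mural-like and endothelial-like classes, by day (marker shape) and time (colour), with 95% Poisson intervals of the count. Among neutrophil-like clusters, cluster 15 stands at 874 CPM at ZT16 and 382 at ZT4 on day 1 while clusters 1 and 5 lie at or under 2.17, and macrophage-like clusters 3, 4, 13 and 0 on day 3 lie at 77.4 to 273.

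Endothelial-like cells also had more Gdf15 after injury. They had 61.0 CPM (51.2 to 72.1) at ZT16 and 59.2 (45.9 to 75.2) at ZT4 on day 1, against 2.02 (1.23 to 3.12) and 1.36 (0.652 to 2.50) on day 0, log2 values of 4.89 (4.23 to 5.67) and 5.39 (4.48 to 6.57). On day 3 they had 43.4 CPM at ZT16 and 44.9 at ZT4, log2 values of 4.42 and 4.99 over day 0. At clustering resolution 2 the cluster led by Apln and Pgf got no class name, since a mast cell marker was among its leading genes; the day 1 values of the endothelial-like cells left were 3.97 and 1.31, on under 30 UMIs, and the call was lost. Cluster 24 held 134 of 137 of the day 1 UMIs at ZT16 and 67 of 67 at ZT4, much as for Inhbb. Its share of the endothelial-like cells was far larger on day 1 than on day 0, as given above. The part of this cell mix in the Gdf15 values was not tested. Neutrophil markers in the endothelial-like cells summed to 602 CPM at ZT16 and 1088 at ZT4 on day 1, with 0 of 11 markers at 0 UMIs, and to 72.4 and 45.2 on day 0, with 4 and 4 at 0. In neutrophil-like cells of day 1 the sums were 68456 and 77032. Their part in the result was not tested. In dendritic-like cells Gdf15 was nearly undetected on day 1. There were 1 UMI at ZT16 and 2 at ZT4 on day 1, against 101 and 34 on day 0, log2 values of -6.74 (-12.64 to -4.81) and -4.00 (-7.40 to -2.34). The size depended on which cells were called dendritic: the ZT4 value was -1.02 at clustering resolution 2, -1.73 with members among the variable genes and -2.22 with thinned cells, and each time the UMIs were under 30 and the call was lost. On day 3 the level was 42.2 CPM (38.9 to 45.6) at ZT16 and 35.2 (32.7 to 37.8) at ZT4. Cluster 6 (led by Cd209a) alone had 0.239 CPM at ZT16 and 0.594 at ZT4 on day 1, against 115 and 42.8 on day 0. Monocyte-macrophage markers in these cells were lowest on day 1 too, summing to 4372 CPM at ZT16 and 3873 at ZT4. In fibro-adipogenic-like cells Gdf15 stayed under 10 CPM in the 6 libraries, and its 2-fold rise on day 3 reversed once an estimate of free RNA was subtracted (-0.85). Mural-like cells had 52.9 CPM at ZT16 and 47.8 at ZT4 in uninjured muscle, the highest of the classes on day 0.

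Ccn2, which encodes a matricellular protein and is a classical target of TGF-beta and of the mechanically regulated YAP/TAZ-TEAD factors, was highest on day 0 in tenocyte-like cells at ZT16 and in glial-like cells at ZT4. Tenocyte-like cells, which were numerous enough only on day 0, had 1105 CPM (1047 to 1166) at ZT16 and 321 (279 to 367) at ZT4, where the glial-like level was 378 (320 to 443), on intervals that overlap. Fibro-adipogenic-like cells had 179 (174 to 184) at ZT16 and 54.6 (51.9 to 57.3) at ZT4 on day 0, 293 (273 to 314) and 249 (224 to 275) on day 1, and 348 (336 to 360) and 133 (126 to 141) on day 3. The differences from day 0 were over 2-fold at ZT4 and under it at ZT16, so none counts as a change between days. In myogenic-like cells Ccn2 was at 0.842 CPM at ZT16 and 0.466 at ZT4 on day 3, against 28.8 (25.2 to 32.8) and 56.8 (50.6 to 63.7) on day 0, a fall of 5.06 and 6.88 on the log2 scale. Fibro-adipogenic markers summed to 73.3 CPM at ZT16 and 62.3 at ZT4 in the day 3 myogenic-like cells and to 863 and 884 on day 0. The median depth of these cells was 43417.5 to 44830 UMIs on day 3, against 5598 to 6782 on day 0. Their part in the result was not tested.

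Between the 2 collection times, Ccn2 was higher at ZT16 in stromal and mural classes, and Fst was lower in fibro-adipogenic-like cells. On day 0, 19 of 62 combinations of a member and a class passed the 1.5-fold rule over 10 classes. In fibro-adipogenic-like cells 1 rose (Ccn2) and 1 fell (Fst) of 10, a share near the 14.5% of all genes that passed. They had log2 values at ZT16 over ZT4 of 1.72 (1.63 to 1.80) for Ccn2 and -1.35 (-1.40 to -1.30) for Fst. Both held in each large day 0 cluster of the class: Ccn2 at 1.38 in cluster 8, 2.11 in cluster 10 and 1.68 in cluster 19, and Fst at -2.17, -0.82 and -1.57. In mural-like cells 3 rose and 1 fell of 9, beside 17.5%. Ccn2 was at 166 CPM (152 to 181) at ZT16 and 23.7 (17.6 to 31.2) at ZT4, and Fst at 45.2 (38.1 to 53.3) and 6.62 (3.62 to 11.1). Inhba was at 24.5 CPM at ZT16 and 16.1 at ZT4, while Tgfb2 was at 58.6 and 132. Erythroid markers in those mural-like cells summed to 14 CPM at ZT16 and 4259 at ZT4; their part in the result was not tested. With doublets kept, the Tgfb2 value was -0.01, but in a different set of cells, because the cluster led by Gabrr1 and Kcnj8 got no class name. The mural-like class then held 236 cells at ZT16 and 191 at ZT4, against 760 and 545 as reported. Inhba reversed when cells above 5% mitochondrial UMIs were left out (-0.49). In tenocyte-like cells 2 of 8 rose (Ccn2 at 1.78 and Fst at 0.72, with Fst at 0.46 and not called once doublets were kept), beside 21.1%, and in endothelial-like cells 1 of 8 rose, beside 17.8% (Ccn2 at 29.5 CPM at ZT16 and 9.93 at ZT4).

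The same 2 genes went the other way in other classes of day 0. In glial-like cells 1 member rose and 2 fell of 5, beside 17% of all genes: Ccn2 was at 129 CPM (103 to 161) at ZT16 and 378 (320 to 443) at ZT4, and Fst at 12.8 (5.52 to 25.2) and 82.0 (56.5 to 115), over 115 and 89 cells. The estimated share of free RNA in these cells was 24.1% at ZT16 and 5.17% at ZT4. The Fst call was lost, on under 30 UMIs, with free RNA subtracted (-6.22) and with thinned cells (-1.51). In myogenic-like cells Ccn2 and Inhbb fell by 0.98 and 0.80 on the log2 scale and Tgfb1 rose by 0.84, 3 of 8 beside 16.6%. The 2 times differed in their share of the deep cells of clusters 20 and 32, as given above. Within cluster 12 alone Ccn2 was at 27.5 CPM (23.7 to 31.8) at ZT16 and 57.3 (51.0 to 64.1) at ZT4, a log2 value of -1.06 (-1.33 to -0.79). In the same cluster Inhbb was at -0.59 (-0.94 to -0.24), at the 1.5-fold limit, and Tgfb1 at 0.75 (0.24 to 1.29). The Tgfb1 call was lost with doublets kept (0.31) and with the 5% mitochondrial limit (0.26). In dendritic-like cells 2 of 4 passed as higher, beside 10.6%, and neither call was stable. Gdf15 was at 33.4 CPM (27.2 to 40.5) at ZT16 and 9.77 (6.76 to 13.6) at ZT4, a log2 value of 1.76, and at 1.41 within cluster 6. It had under 30 UMIs and so no call at clustering resolution 2 (2.60), with members among the variable genes (0.40) and with thinned cells (3.39). Tgfbr1, at 0.586, was just past the limit and lost its call with doublets kept (0.04), at resolution 2 (0.10), with members among the variable genes (0.41) and with TMM scaling (0.577). Of the remaining classes, monocyte-macrophage-like cells had 0 of 4 (12% of all genes), T cell-like cells 1 of 2 (22.5%) and mature muscle-like cells 1 of 4 (12.8%). The differences in direction between classes were not tested.

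After injury the stromal differences in Ccn2 and Fst between collection times were partly kept. On days 1 and 3 the 2 times may also differ in hours since injury, which cannot be told apart from collection time. On day 1, 10 of 37 combinations passed over 6 classes; in fibro-adipogenic-like cells 3 of 8 fell, beside 21.8% of all genes in either direction and 15.3% that fell (Tgfb2, Tgfb3 and Fst, at -0.62, -0.61 and -0.59, all 3 under the limit with TMM scaling), and Ccn2 did not pass. In mural-like cells of day 1, 3 rose and 1 fell of 8, beside 21.4%, with Ccn2 at 150 CPM (123 to 182) at ZT16 and 17.0 (6.24 to 37.0) at ZT4. Endothelial-like Inhbb was lower at ZT16, at -1.95 (-2.48 to -1.46), the only 1 of 7 members to pass there, beside 16.3%; at clustering resolution 2 it was -1.09 on under 30 UMIs. In monocyte-macrophage-like cells 2 of 6 fell, beside 14.5%, with Inhba at -1.30 (-1.52 to -1.08) and Fst, with few UMIs, at -1.69. Neutrophil-like cells had 0 of 5, beside 16.3%, and dendritic-like cells 0 of 3, beside 15.2%.

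On day 3, 9 of 46 combinations passed over 10 classes. In fibro-adipogenic-like cells Ccn2 rose at ZT16 by 1.38 (1.29 to 1.48) log2 and Fst fell by 0.71, 2 of 9 members beside 8.65% of all genes; in cluster 21 alone the values were 1.44 and -0.66. Mural-like cells, 62 at ZT16 and 54 at ZT4, had Ccn2 at 167 CPM (127 to 215) and 21.6 (7.03 to 50.5), and 3 of 4 members passed there, beside 20.4%. Ccn2 in mural-like cells was therefore higher at ZT16 in each of the 3 days, on intervals that do not overlap, but the day 3 class fell under 50 cells and gave no value in the same 4 settings as its Inhba. Monocyte-macrophage-like cells had 1 of 7 (8.13%), myogenic-like cells 1 of 8 (10%), neutrophil-like cells 1 of 5 (24.4%), NK cell-like cells 1 of 2 (20.7%), endothelial-like cells 0 of 5 (20.8%), dendritic-like cells 0 of 4 (8.27%) and T cell-like cells 0 of 2 (21%).

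**Figure D4:**
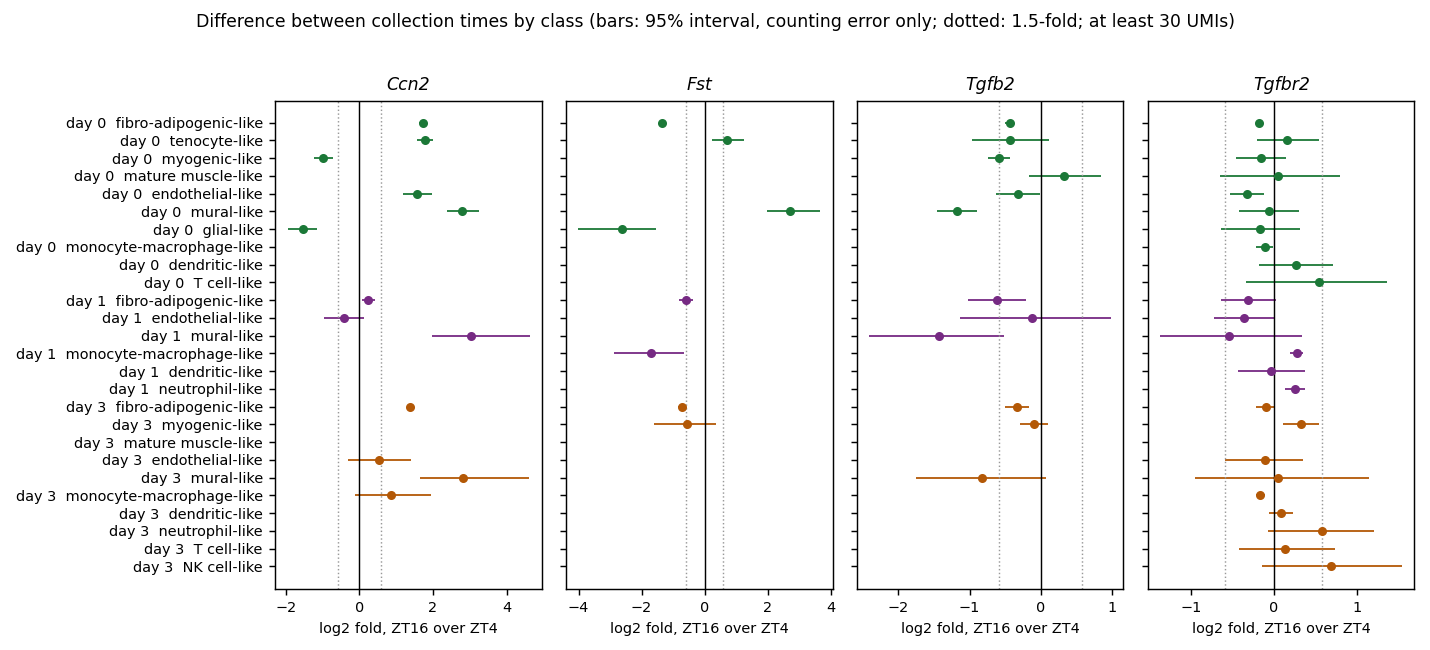
Log2 ratio of ZT16 to ZT4 levels of Ccn2, Fst, Tgfb2 and Tgfbr2 (points with 95% intervals covering counting error only) by class on days 0, 1 and 3; positive values are higher at ZT16 and dotted lines mark 1.5-fold. Ccn2 lies at 1.72 and 1.38 in fibro-adipogenic-like cells on days 0 and 3 and at 2.80, 3.03 and 2.82 in mural-like cells, while Fst in fibro-adipogenic-like cells lies at -1.35, -0.59 and -0.71.

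The other genes of the pathway were counted in lists of receptors, SMAD proteins, storage and release factors, and response genes. In fibro-adipogenic-like cells 7 of 20 TGF-beta response genes rose and 1 fell on day 3 against day 0 (7.58% and 12.3% of all genes), with a median of 0.53 log2 against -0.18 over all genes. Acta2, smooth muscle actin, was at 243 CPM at ZT16 and 293 at ZT4 on day 3, against 6.36 and 6.41 on day 0. Cthrc1, a secreted protein of activated fibroblasts, was at 275 CPM at ZT16 and 444 at ZT4, against 9.81 and 5.23. On day 1, 4 of the 20 rose and 6 fell, where 9.5% of all genes rose and 18.7% fell. Timp1, a metalloproteinase inhibitor, was at 2012 CPM at ZT16 and 1261 at ZT4 on day 1, against 14.9 and 24.5 on day 0. Smad7, the inhibitory SMAD that TGF-beta induces, was the 1 of 10 SMAD-list genes that rose on day 1, at 187 CPM at ZT16 and 130 at ZT4 against 48.5 and 41.9 on day 0, while Ski fell. Of 11 storage and release genes tested on day 1, 1 rose and 5 fell. Ltbp2 was at 67.7 CPM at ZT16 and 69.8 at ZT4 on day 1, against 0.575 and 0.520 on day 0. Ltbp4, another latent TGF-beta binding protein, was at 90.4 CPM at ZT16 and 121 at ZT4, against 834 and 791. The fibro-adipogenic marker sum itself was 3506 CPM at ZT16 and 5913 at ZT4 on day 1, against 21188 and 20809 on day 0.

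In monocyte-macrophage-like cells of day 1, 4 of 8 storage and release genes rose and 2 fell against day 0 (7.19% and 22.9% of all genes), with a median of 0.89 against -0.35 over all genes. Thbs1, thrombospondin 1, which can activate latent TGF-beta, was at 1738 CPM at ZT16 and 2723 at ZT4 on day 1, against 8.47 and 2.41 on day 0. Mmp14, a membrane metalloproteinase, was at 36.1 CPM at ZT16 and 75.9 at ZT4 on day 1, against 2.27 and 0.603 on day 0. Of 7 receptors and co-receptors beside the members, 0 rose and 4 fell (Acvr2b, Eng, Acvrl1 and Acvr1). Smad7 was the 1 of 10 SMAD-list genes that rose, at 41.0 CPM at ZT16 and 42.2 at ZT4 against 10.3 and 8.14 on day 0. On day 3 Thbs1 was at 421 CPM at ZT16 and 373 at ZT4. Of the 7 integrated stress response genes tested, the list that holds Gdf15, 1 rose and 3 fell on day 1 against day 0. On day 3 against day 1 only Gdf15 rose and Slc7a11 fell, where 13.7% of all genes rose and 5.64% fell.

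In myogenic-like cells many other genes of the pathway were lower on day 3. Against day 0, 15.2% of all genes rose and 18.1% fell in these cells. Of 9 receptors and co-receptors, 0 rose and 6 fell, with a median of -2.35 against -0.05 over all genes. Tgfbr3, betaglycan, which presents TGF-beta2 to its receptors, was at 5 CPM at ZT16 and 2.37 at ZT4 on day 3, against 209 and 185 on day 0. Of 10 SMAD-list genes 0 rose and 4 fell (Skil, Ski, Zfyve9 and Smad7), and of 20 response genes 4 rose and 10 fell. Of 8 TEAD and mechanical response genes 1 rose (Axl) and 4 fell (Ccn1, Ccn2, Amotl2 and Lats2).

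In day 1 endothelial-like cells 3 of 8 integrated stress response genes rose and 0 fell against day 0, where 16.9% of all genes passed in either direction and 6.4% rose. Besides Gdf15 these were Asns, asparagine synthetase, at 86.3 CPM at ZT16 and 98.2 at ZT4 on day 1 against 15.8 and 18.5 on day 0, and Sesn2. Ankrd1, a YAP/TAZ-TEAD target, was at 81.9 CPM at ZT16 and 215 at ZT4 on day 1, against 0.404 and 0.272 on day 0. Between collection times on day 0, 4 of 7 TEAD-list genes rose and 0 fell at ZT16 in mural-like cells (7.56% of all genes rose), with a median of 1.00 against -0.04 over all genes. Beside Ccn2 these were Ccn1 at 653 CPM at ZT16 and 254 at ZT4, Lats2 at 85.4 and 42.6, and Amotl2 at 53.5 and 10.9. In day 0 endothelial-like cells 4 of 7 rose and 1 fell (4.97% and 12.8% of all genes), with a median of 0.68 against -0.13, and in fibro-adipogenic-like cells 2 of 8 rose (Ankrd1 and Ccn2) and 0 fell (8.79% and 5.76%). Other classes of day 0 had more of the list lower than higher at ZT16. In glial-like cells 0 of 5 rose and 3 fell (9.65% and 7.38% of all genes), with a median of -0.82 against 0.01 over all genes. Myogenic-like cells had 1 of 8 higher and 3 lower (9.07% and 7.58%), with a median of -0.42 against -0.01. Tenocyte-like cells had 1 of 7 higher and 2 lower (13.6% and 7.51%), with a median of -0.05 against 0.05. These counts include Ccn2, already given above as lower in glial-like and myogenic-like cells and higher in tenocyte-like cells.

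The genes whose levels most resembled the members over the 55 groups of class and library were found by the Pearson correlation of log2(CPM + 1) among 13909 genes. This is a description over groups that share libraries and day. Tgfb1 was closest to Tmsb4x (r = 0.92), Cyba and Actr3, all abundant in leukocytes, Fst to Mfap5 (0.92), Fgf7 and Podn, and Ccn2 to Bgn (0.92), Fkbp10 and Htra1. Tgfb2 was closest to Mpdz (0.96), Ube2e2 and Cdc42ep5, Tgfb3 to Gas1 (0.94), Lhfp and Arhgef25, and Tgfbr2 to Glg1 (0.89), Slc38a10 and Kidins220. The lowest values were those of Gdf15, closest to Fnip2 (0.75), Nat8l (0.71) and Ralb (0.71), and of Inhba, closest to 9530077C05Rik (0.78), Crispld2 and F3; Inhbb was closest to Pcdhb20 (0.85), Pcdhb16 and Sncaip.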

How the data were processed

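The values are the raw UMI counts per gene and cell that the authors deposited, 1 matrix per library with 72747703 to 132221721 UMIs; Cell Ranger 1.0.0 and mm10 are named in the submitters' processing notes, and Cell Ranger 6.1.2 in the file headers. Nothing upstream of the counts was repeated. Barcodes with under 200 genes, under 500 UMIs or over 10% mitochondrial UMIs were dropped. The automatic threshold of a simulated-doublet score marked 0, 1 and 2 barcodes in 3 libraries, so the highest-scoring barcodes of each library were removed at 0.8% per 1000 cells (5563 in all).

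Cells were clustered with scanpy 1.11.5 and leidenalg 0.10.2 (2000 variable genes without the members and pathway genes, 30 components, 15 neighbours, resolution 1) and classes were named from at least 3 listed markers, so classes are rebuilt here and may differ from the authors' own. UMI sums per class and library gave CPM with exact 95% Poisson intervals. The log2 ratios had 0.5 UMI added and exact conditional binomial intervals. The calculation was checked on simulated Poisson counts with planted changes. These hold no variation between libraries, mice or cell mix, so they check the arithmetic and not the calls. TMM scaling came from edgeR 4.0.16. Genes were named by a rule: all 10 members, up to 4 called genes per list by size of change, and 3 genes by likeness to each member. Some genes that the rule names are not reported here. The members and lists were chosen with earlier results of these data known. Each day and collection time is 1 library, so no p-value is given. Depth limits low levels: the 3-UMI limit for a count of 0 depends on the UMIs of each class. Gene positions and promoter windows come from GENCODE vM21 and RefSeq on GRCm38.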

Additional observations from a re-analysis of the deposited data

Results flagged for a closer look

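Several members moved in opposite directions in different cell classes under the same contrast, which marks them for a closer look. None of these differences between classes was tested, since each group is 1 library. Values for days are the mean of the log2 ratios at ZT16 and ZT4.

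In day 1 cells against day 0 cells, Inhbb stood at 3.63 in endothelial-like and -3.45 in fibro-adipogenic-like cells, where a count of 0 at ZT16 makes the value depend on the 0.5 UMI added. Gdf15 stood at 5.14 in endothelial-like and -5.37 in dendritic-like cells; at clustering resolution 2 they stood at 2.64 and -3.55, with neither called.

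In day 3 cells against day 0 cells, Tgfb3 stood at 1.29 in fibro-adipogenic-like and -3.33 in myogenic-like cells. Tgfbr1 stood at 1.86 in dendritic-like, 1.44 in monocyte-macrophage-like and -1.25 in myogenic-like cells. The dendritic-like values were 0.41 at ZT16 and 0.40 at ZT4 with thinned cells. The myogenic-like value at ZT16 was -0.97, under the limit, with doublets kept. Tgfbr2 stood at 1.23 in endothelial-like, -1.38 in fibro-adipogenic-like and -1.39 in monocyte-macrophage-like cells. Inhbb stood at 2.93 in endothelial-like, -2.26 in fibro-adipogenic-like and -4.98 in myogenic-like cells. With thinned cells these Inhbb values, and those of day 1 above, were on under 30 UMIs and none was called.

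At ZT16 against ZT4 on day 0, Ccn2 stood at 2.80 in mural-like, 1.78 in tenocyte-like, 1.72 in fibro-adipogenic-like and 1.56 in endothelial-like cells, but at -0.98 in myogenic-like and -1.54 in glial-like cells. The myogenic-like class held 38 cells of cluster 20 and 39 of cluster 32 at ZT16, against 4 and 0 at ZT4, and Ccn2 stood at -1.06 in cluster 12 alone. Fst stood at 2.73 in mural-like and 0.72 in tenocyte-like cells, and at -1.35 in fibro-adipogenic-like and -2.62 in glial-like cells; the tenocyte-like value was 0.46, under the limit, with doublets kept. The glial-like Fst call was lost, on under 30 UMIs, with free RNA subtracted and with thinned cells. On day 1 Inhba stood at 1.97 in mural-like and -1.30 in monocyte-macrophage-like cells. The mural-like value rests on a ZT4 level of 11.3 CPM (3.09 to 29.0) over 61 cells. With thinned cells it was -0.78, on under 30 UMIs. In myogenic-like cells the ZT16 over ZT4 value of Inhbb was -0.80 on day 0 and 1.27 on day 3. This change of direction is weakly grounded: the day 0 value was -0.59 in cluster 12 alone, at the limit, and the day 3 value rests on 20 UMIs at ZT16 and 12 at ZT4 and was 0.23, not called, with the 5% mitochondrial limit.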

How the results depend on the processing

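No paired analysis was possible because every day and collection time is 1 library and no replicate numbers are shared. Of 75 ratios that passed, 72 kept their call with members among the variable genes and 72 with 2 UMIs added, 70 after subtracting free RNA, 69 with TMM scaling, 69 at clustering resolution 2, 69 with a minimum of 1500 UMIs per cell, 62 with doublets kept, 62 with a 5% mitochondrial limit, 45 with a stricter fold and 33 with cells thinned to 1000 UMIs, where 34 were lost for having under 30 UMIs. The counts of passing members moved by over 1.5 times in these settings. With no UMI minimum they were 18 (against 11) for day 1 over day 0, 31 (against 18) for day 3 over day 0, 17 (against 8) for day 3 over day 1, and 39, 24 and 37 (against 19, 10 and 9) for ZT16 over ZT4 on days 0, 1 and 3. With thinned cells they were 7 for day 1 over day 0, and 3 and 5 for ZT16 over ZT4 on days 1 and 3. A 3-fold limit left 9 for day 3 over day 0, and a 2-fold limit left 10 and 4 for ZT16 over ZT4 on days 0 and 3. The share of all genes that passed was not counted in these settings. These counts therefore show how the rule acts and say nothing about the members in particular. Log2 values that changed sign were Tgfbr1 in dendritic-like cells at ZT16 over ZT4 on day 0 (-0.17, thinned), Gdf15 in fibro-adipogenic-like cells on day 3 over day 0 (-0.70 thinned, -0.85 after subtracting free RNA), and Inhba in mural-like cells at ZT16 over ZT4 (-0.49 on day 0 with the 5% limit, -0.78 on day 1 thinned); the cause was not tested. TMM scaling moved the median of all genes most in neutrophil-like cells, by -0.83 to -0.67 log2 on day 3 over day 1, then in monocyte-macrophage-like cells, by 0.54 to 0.57 on day 1 over day 0; with it no call reversed and Tgfbr2 in monocyte-macrophage-like cells fell just short of 2-fold on day 3 over day 0.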
